A study of Mus musculus with 8 samples.

Results

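This account covers 32 genes of fatty acid metabolism in microglia, the resident macrophages of the brain: genes of fatty acid oxidation, synthesis, elongation and desaturation, with their transcription factors, fatty acid-binding proteins and genes of lipid droplets and phospholipid remodelling. They were taken by gene symbol from a deposited table of 46983 genes, using the row with the highest mean level where a symbol was repeated, and all 32 were found. RNA was sequenced in 8 libraries of microglia isolated from the corpus callosum, the large white matter tract of the brain, of mice on an FvB/C57BL6 hybrid background. The sample names divide the libraries into a WT and a Qk-KO group of 4 each, numbered 1 to 4. Every mouse carried Cx3cr1-CreER, a Cre recombinase that is active only in the presence of tamoxifen and is expressed from the promoter of the fractalkine receptor gene, which microglia and other cells of the macrophage lineage use. The labels define Qk-KO as QKLoxP/LoxP, a genotype in which loxP sites surround a part of Qk on both chromosomes, and WT as QKLoxP/+, in which they do so on 1, so that the WT mice also carried the recombinase and could lose 1 allele. Tamoxifen was injected in all mice at the age of 8 weeks, and 0.2% cuprizone, a toxin that removes myelin by killing oligodendrocytes, was in their feed for the next 6 weeks, so no library came from an untreated brain. Qk encodes quaking, an RNA-binding protein that acts in splicing and RNA stability.

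For 4 of the 8 libraries the genotype field contradicts the name: it calls named WT 2 and 3 Qk-KO, and named Qk-KO 1 and 3 WT. Libraries are therefore called by their names, and a difference between names is not read as one between genotypes. The authors' deposited log2 fold changes followed the names (r = 0.9997 across 5232 genes with a standard error under 0.1, against 0.046 for the genotype field), so that a negative value means lower in named Qk-KO. Values per library are given on the deposited log2 scale, which is adjusted for depth and draws scarce genes towards their mean. Qk itself ranged from 15.37 to 15.50 on that scale in named WT and from 15.29 to 15.69 in named Qk-KO. Its mean was higher in named Qk-KO by 0.079 (limma adjusted p = 0.819). In the libraries that the genotype field calls Qk-KO it stood at 15.383, 15.413, 15.405 and 15.291. In those that the field calls WT it stood at 15.498, 15.366, 15.586 and 15.693. The groups overlapped by name and by field, and the value sums all exons, including those outside the deleted part. Approximate totals of reads assigned to genes were 59.7 to 69.7 M in named WT and 43.9 to 58.5 M in named Qk-KO. Whether the libraries stem from different animals is not stated in the labels, and the p-values therefore reflect only how far these libraries differ, which may be technical. All 9 microglia markers reported, Csf1r, Cx3cr1, P2ry12, Tmem119, Aif1, Trem2, Itgam, Ptprc and Sall1, were above 1 CPM, a unit of read counts scaled to a common library total.

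As background, fatty acids are made in the cytosol from acetyl-CoA by way of malonyl-CoA and palmitate, then lengthened by elongases and given double bonds by desaturases, largely under the transcription factors SREBP1c and ChREBP. They are burned in mitochondria after entry by the carnitine shuttle. Microglia that clear myelin debris take up large amounts of lipid, which they store in droplets, oxidise, export or rebuild into membrane phospholipids, and fatty acid and sterol handling in phagocytes is known to shape how white matter recovers from demyelination.

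Several of these genes lie near each other in the genome. Scd1 and Scd2, paralogous stearoyl-CoA desaturases, lie 87.6 kb apart on chromosome 19, with Scd2 at 44293674 to 44306864 and Scd1 at 44394455 to 44407879 (GRCm38). Fads1, at 10182888 to 10196877 of the same chromosome, and Fads2, at 10062765 to 10101746, lie 81.1 kb apart. Hadha and Hadhb, which encode both subunits of the mitochondrial trifunctional protein, are transcribed away from each other on chromosome 5 from starts separated by 85 bases. The first sequence below is the longest identical run between the Scd1 and Scd2 transcripts, 147 bases inside both coding sequences. It is shown because a read that lies wholly inside it fits both genes equally. It covers positions 823 to 969 of the Scd1 transcript and 1246 to 1392 of the Scd2 transcript. Of all 50-base stretches in its exons, Scd1 shared 4.56% with other genes, most with Scd3, and Scd2 shared 3.97%, most with Scd1.
Scd1 and Scd2 shared coding run: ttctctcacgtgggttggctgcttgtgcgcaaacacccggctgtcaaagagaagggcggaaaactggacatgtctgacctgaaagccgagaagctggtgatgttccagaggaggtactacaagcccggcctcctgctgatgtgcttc
The second is the RefSeq promoter window of Hadhb (GRCm38.p6, chr5:30155003-30155302, plus strand), 250 bases before to 50 after its RefSeq start. Capitals mark the 85 bases between the annotated starts of Hadha (30155162, minus strand) and Hadhb (30155248, plus strand), shown because this single stretch separates both subunit genes.
Hadhb promoter: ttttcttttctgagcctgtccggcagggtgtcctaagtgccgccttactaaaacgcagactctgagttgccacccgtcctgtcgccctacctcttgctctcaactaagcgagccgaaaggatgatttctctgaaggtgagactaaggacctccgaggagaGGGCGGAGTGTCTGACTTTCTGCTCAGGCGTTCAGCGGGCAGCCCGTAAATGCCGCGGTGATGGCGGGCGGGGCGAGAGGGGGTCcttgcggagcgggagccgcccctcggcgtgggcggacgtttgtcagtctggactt
The last pair are the windows of Fasn (chr11:120824498-120824797, minus strand) and Fads2 (chr19:10101454-10101753, minus strand), shown as the gene of the central synthesis step and as the member whose libraries differed most. Capitals mark CCAAT boxes on either strand. Fasn held 3 matches, of which 2 overlapped, and in the Fads2 window none of the motifs searched was found. The annotated gene Fads2 starts at 10101746, close to the upstream end of that window. Most of the window thus lies inside the annotated gene, and sequence before that start was hardly searched.
Fasn promoter: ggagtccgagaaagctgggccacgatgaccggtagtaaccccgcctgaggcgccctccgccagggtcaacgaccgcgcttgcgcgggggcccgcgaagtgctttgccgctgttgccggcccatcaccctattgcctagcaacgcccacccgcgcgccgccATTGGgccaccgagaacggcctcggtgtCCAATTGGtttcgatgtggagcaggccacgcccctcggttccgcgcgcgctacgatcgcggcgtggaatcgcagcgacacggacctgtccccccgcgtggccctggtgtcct
Fads2 promoter: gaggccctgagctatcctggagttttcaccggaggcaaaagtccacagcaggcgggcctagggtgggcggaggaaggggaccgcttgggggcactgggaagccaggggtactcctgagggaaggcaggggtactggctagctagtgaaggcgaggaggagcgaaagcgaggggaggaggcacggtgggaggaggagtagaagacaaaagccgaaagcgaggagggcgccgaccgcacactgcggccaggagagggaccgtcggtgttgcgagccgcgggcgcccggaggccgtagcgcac
RefSeq windows of the same length were given for 25 of the 32 genes. Both strands were searched for 3 motifs: the sterol regulatory element TCACNCCAC, the E-box CACGTG and the CCAAT box. The sterol element stood in the windows of Acsl1 and Mlxipl, 2 of 25, against 1.24% of all 32851 promoters. The E-box stood in Elovl5, Mlxipl and Plin2, 3 of 25, against 7.15%. CCAAT was present in 14 of 25, against 37.4%. Members were counted by gene, with a match in any window of the gene, and the background by single window. The shares are therefore not strictly alike, and no enrichment was tested. A match describes letters only.

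Per length, the most abundant of the 32 transcripts were those of a desaturase, a droplet coat protein, an enzyme of synthesis and a fatty acid-binding protein. Levels are means over the 8 libraries in CPM per kb of merged exons. Scd2 led at 71.8 CPM per kb, followed by Plin2 at 63.1, Acly at 51.8 and Fabp5 at 39.9. Srebf1, Lpcat3 and Ech1 came next at 21.6, 19.0 and 18.9. The 12 oxidation genes occupied the middle, from 2.16 for Slc25a20 to 18.9 for Ech1. At the bottom stood Fabp4 at 0.0969, Elovl6 at 0.103, Pdk4 at 0.124 and Me1 at 0.262. Paralogues differed widely: Scd2 stood far above Scd1 at 1.19, Fads1 at 12.8 above Fads2 at 1.26, and Fabp5 above Fabp4. Fabp4, Pdk4 and Elovl6 were the 3 members under 1 CPM before division by length, at 0.435, 0.435 and 0.665 CPM.

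**Figure D1:**
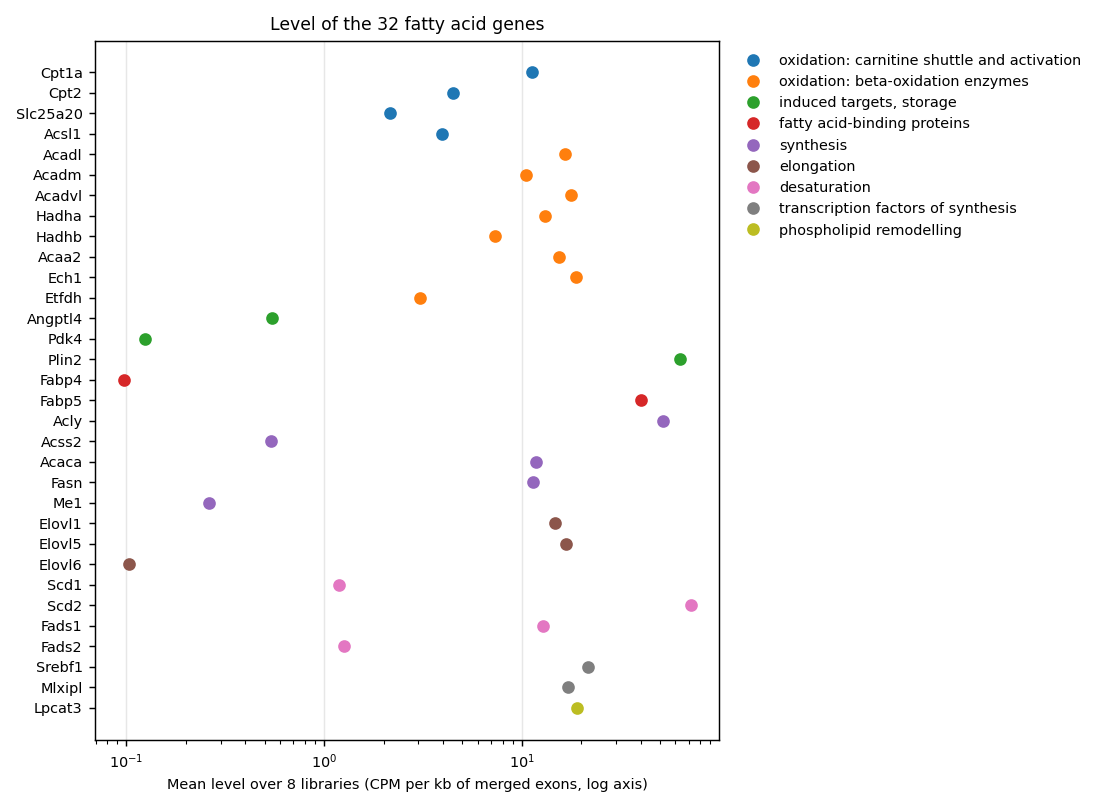
Mean level of each of the 32 genes over 8 libraries, in CPM per kb of merged exons on a log axis, coloured by role. Scd2, Plin2, Acly and Fabp5 lead at 39.9 to 71.8 CPM per kb, and Fabp4, Elovl6, Pdk4 and Me1 close the order at 0.0969 to 0.262.

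None of the 32 genes passed the test between named Qk-KO and named WT. By limma Fads2, Scd1 and Me1 had the most negative differences, -1.03, -0.54 and -0.53, and Plin2 the most positive, 0.23. All 32 were among the 22546 genes tested with limma on the deposited log2 values, where 1 gene, or 0.00444%, passed an adjusted p of 0.05 (Benjamini-Hochberg over all genes), and that gene was none of the 32. An adjusted p is given in the authors' deposited table for 29 of them, all but Pdk4, Fabp4 and Elovl6, and calls 0 of the 29, against 173 of 14150 genes or 1.22%. At an unadjusted p under 0.05 that table holds 2 of the 29, against 10.7% of the 14150. At its weaker threshold of 0.1, 159 genes or 1.12% were lower in named Qk-KO, and Scd2 was 1 of them. An unadjusted limma p under 0.05 was reached by 2 members, Scd2 and Fads1, against 8.26% of all genes tested. The named groups did not overlap for 2 members, Scd2 and Elovl6, both lower in named Qk-KO, against 5.73% of tested genes in either direction and 2.7% in that direction. Counts of 2 in 32 lie near the unadjusted background and are no result about the set.

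Differences were small for most members. The limma difference, named Qk-KO minus named WT, was negative for 22 and positive for 10, with a median of -0.047 on the log2 scale against -0.0044 over all genes tested, of which 51.2% were negative. Without named Qk-KO 3 the members' median was -0.0084, and 17 were negative. The median size regardless of sign was 0.097 for the members and 0.108 for all genes. The split also moved with the scaling. With each library centred on its median, which moved the median of all genes to 0.072, 12 members were negative and 20 positive, and the median of the members was 0.029. The 12 genes of synthesis, elongation and desaturation had a median difference of -0.21, with 10 negative and 2 positive, and the 12 oxidation genes one of -0.0030, with 7 negative and 5 positive. The difference between those 2 groups of genes was not tested.

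**Figure D2:**
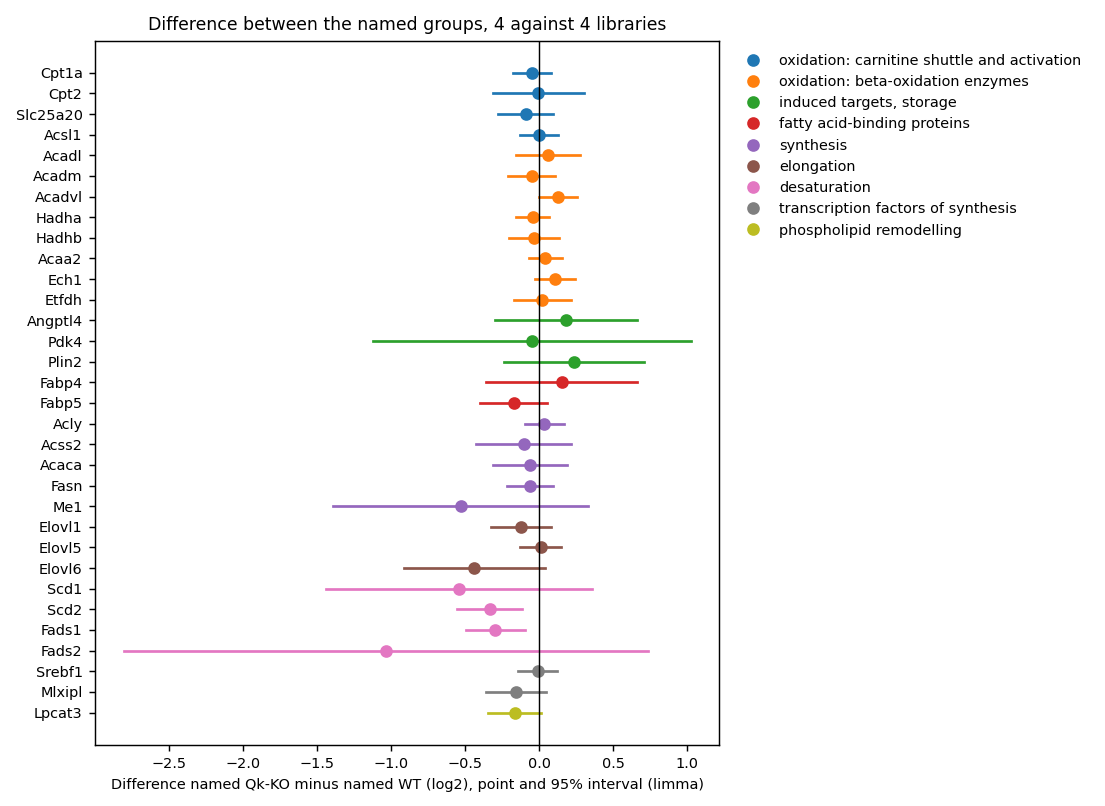
Difference named Qk-KO minus named WT on the log2 scale for each of the 32 genes, 4 against 4 libraries, with points for the limma estimate and bars for its 95% interval, coloured by role. The intervals of Scd2 and Fads1 alone leave out 0, before any adjustment over genes, and those of Fads2 and Pdk4 are the widest.

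Among the desaturation genes the mean of named Qk-KO was below that of named WT for all 4, with a median difference of -0.44, and none was called. That median was the lowest of the roles, which were not compared by a test, and Me1 and Elovl6 of other roles had more negative differences than Scd2 and Fads1. Scd2, a stearoyl-CoA desaturase that introduces the first double bond into saturated fatty acids and is the main such isoform of brain, had deposited log2 values of 14.60, 14.43, 14.47 and 14.87 in named WT 1 to 4 and of 14.36, 14.29, 14.13 and 14.25 in named Qk-KO 1 to 4. Every named Qk-KO library lay below every named WT library. The means were 14.59 ± 0.20 and 14.26 ± 0.10 (SD, n = 4 each). Limma gave a difference of -0.33 ± 0.10 (SE), a 95% interval of -0.55 to -0.12, an unadjusted p of 0.00659 and an adjusted p of 0.443. In the authors' deposited table the log2 fold change was -0.35 ± 0.11 (SE), a 1.27-fold lower level, with an adjusted p of 0.0905.

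Fads1, the delta-5 desaturase of long-chain polyunsaturated fatty acid synthesis, showed values of 11.97, 11.77, 11.87 and 12.02 in named WT and of 11.63, 11.58, 11.42 and 11.81 in named Qk-KO. Only named Qk-KO 4 overlapped with named WT, lying above named WT 2. The difference was -0.30 ± 0.09 (SE), its 95% interval running from -0.49 to -0.10, an unadjusted p of 0.00768 and an adjusted p of 0.444 by limma. The authors' deposited table gives -0.30 ± 0.10 (SE) with an adjusted p of 0.139.

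Scd1, the isoform best known from liver and adipose tissue, had values of 8.57, 8.11, 8.18 and 9.07 in named WT and of 7.83, 7.42, 7.40 and 9.12 in named Qk-KO. Named Qk-KO 4 was the highest of all 8 libraries, and the other 3 named Qk-KO libraries were the lowest 3. The limma difference was -0.54 ± 0.39 (SE), its 95% interval running from -1.44 to 0.36 (adjusted p = 0.725). Without named Qk-KO 4 it was -0.93 (adjusted p = 0.124). Leaving out named WT 4 brought it to -0.35 and named Qk-KO 3 to -0.36.

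Fads2, the delta-6 desaturase that opens polyunsaturated fatty acid synthesis, varied more than any other member. It stood at 8.04, 7.38, 7.38 and 9.0 in named WT and at 7.19, 6.83, 4.95 and 8.70 in named Qk-KO, a range of 4.05 on the log2 scale. Named Qk-KO 3 lay far below the rest, and named WT 4 and named Qk-KO 4 were the highest. The limma difference of -1.03 ± 0.76 (SE) had a 95% interval from -2.80 to 0.74 (adjusted p = 0.729). It was -0.38 without named Qk-KO 3, -0.68 without named WT 4 and -1.63 without named Qk-KO 4, and with libraries grouped by the genotype field it was 0.28. The authors' deposited table gives a smaller log2 fold change of -0.42 ± 0.53 (SE). Grouped by the genotype field, the differences of Scd2, Fads1 and Scd1 were -0.13, -0.0010 and -0.011.

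**Figure D3:**
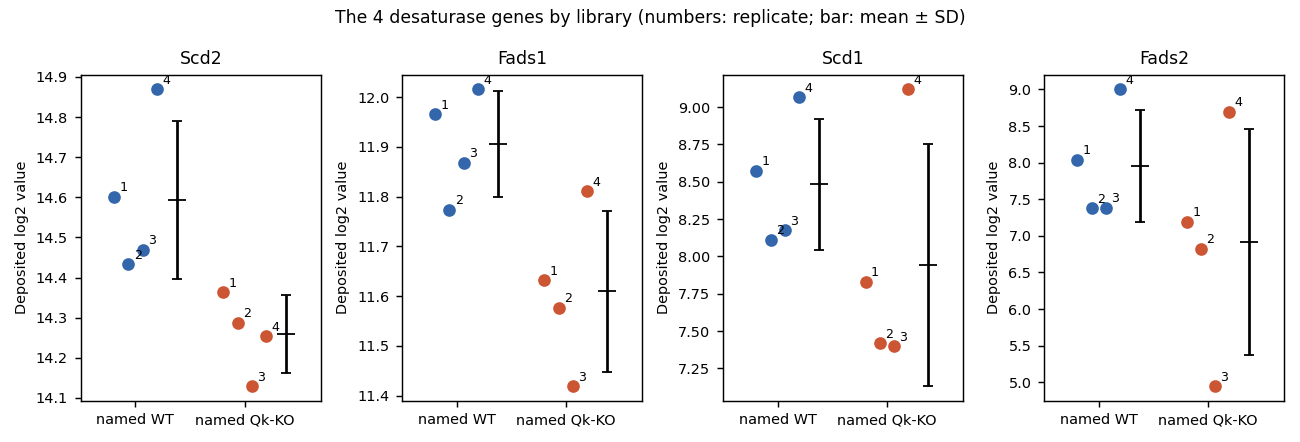
Deposited log2 values of Scd2, Fads1, Scd1 and Fads2 in each library, numbered by replicate, with the mean and SD (n = 4) of each named group beside the points. The groups do not overlap for Scd2, overlap by 1 library for Fads1, and named Qk-KO 4 lies among the highest libraries for Scd1 and Fads2.

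Library values of the desaturases were set beside those of astrocyte markers. Astrocytes are among the cell types that express fatty acid desaturases. Their 10 listed markers (Gfap, Aqp4, Slc1a2, Slc1a3, Aldoc, Gja1, Aldh1l1, S100b, Slc4a4 and Clu) were summed in approximate CPM, taken from the log2 values. For named WT 1 to 4 the sums were 451.6, 248.6, 294.6 and 626.8, and for named Qk-KO 1 to 4 they were 237.5, 153.8, 96.4 and 593. All 10 markers were lower on average in named Qk-KO, and none was at 0 or under 1 CPM. That direction was not particular to astrocytes. It held for all 10 mural and fibroblast, 8 oligodendrocyte precursor, 7 neutrophil and 5 erythroid markers. It also held for 9 of 10 endothelial, 9 of 10 oligodendrocyte, 7 of 8 neuron and 7 of 9 microglia markers. Fads2 ordered the 8 libraries exactly as this sum did. It was 1 of 45 such genes among the 22546 tested, or 0.2%, a count from which the summed markers were not left out. Over all 8 libraries Scd2 and Fads1 did not follow it. Scd1 departed from it only in its top libraries, where named Qk-KO 4, at 9.12, stood above named WT 4, at 9.07. With named Qk-KO 4 left out, the remaining 7 libraries stood in the order of the sum for 4 members, namely Scd1, Scd2, Fads1 and Fads2, and for 122 genes in all, or 0.541%. That order was described after the values were seen, and the library left out is the one in which Scd1, Scd2 and Fads1 departed from it. No such count was made for another marker sum. The oligodendrocyte, neuron, and mural and fibroblast sums were also highest in both libraries numbered 4 and lowest in named Qk-KO 3. Whether the share is particular to the astrocyte sum was not tested. In named Qk-KO 4, where the marker sum was the second highest, Scd2 was at its second lowest value and Fads1 between named WT 3 and named WT 2. The part of astrocyte RNA in the desaturase differences was not tested. In such bulk samples, fewer cells of a type and less RNA per cell cannot be told apart.

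Elongation genes showed one member without overlap. Elovl6, which lengthens palmitate to stearate, had values of 5.27, 5.35, 5.30 and 5.67 in named WT and of 4.97, 5.18, 4.46 and 5.24 in named Qk-KO. Every named Qk-KO library was below every named WT library. The difference was -0.44 ± 0.21 (SE), its 95% interval running from -0.91 to 0.04, an unadjusted p of 0.0669 and an adjusted p of 0.634 by limma. The gene is scarce, and the deposited table gives no adjusted p for it. Its difference was 0.17 with libraries grouped by the genotype field and -0.27 without named Qk-KO 3. Elovl1, an elongase of very long saturated and monounsaturated chains found in sphingolipids and myelin, stood between 11.06 and 11.46 in named WT and between 10.96 and 11.16 in named Qk-KO, a difference of -0.12 ± 0.09 (SE, adjusted p = 0.719) that was -0.044 without named WT 4. For Elovl5, which lengthens polyunsaturated chains made by the FADS enzymes, the difference was 0.011 ± 0.062 (SE), with libraries from 11.62 to 11.84.

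Synthesis genes upstream of these steps were close to equal between the named groups, apart from scarce Me1. Acly, the enzyme that splits citrate into cytosolic acetyl-CoA, ranged from 13.80 to 14.02 over the 8 libraries, and its difference of 0.035 had a 95% interval of -0.10 to 0.17. Fasn, fatty acid synthase, had values of 12.79, 12.81, 12.74 and 12.95 in named WT and 12.90, 12.74, 12.74 and 12.64 in named Qk-KO. The groups overlapped, and the difference was -0.064, its 95% interval running from -0.22 to 0.090 (limma, adjusted p = 0.815). Acaca, acetyl-CoA carboxylase, which makes malonyl-CoA, differed by -0.062 (-0.31 to 0.19), with 1 library, named Qk-KO 4, standing low at 13.08 against 13.40 to 13.67 in the other 7. Without that library its difference was 0.057. Acss2, which makes acetyl-CoA from acetate, differed by -0.10 ± 0.14 (SE). The Acaca value carries a limit, since 30.4% of its 50-base stretches also occur in other genes, most in Gm5182.

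Me1, the cytosolic malic enzyme that supplies NADPH for synthesis, had values of 6.09, 5.48, 5.55 and 6.53 in named WT and of 5.76, 4.93, 4.61 and 6.24 in named Qk-KO. As for Fads2, both libraries numbered 4 were highest and named Qk-KO 3 lowest. The difference was -0.53 ± 0.38 (SE), its 95% interval running from -1.39 to 0.33 (adjusted p = 0.721). It was -0.27 without named Qk-KO 3, -0.32 without named WT 4, -0.81 without named Qk-KO 4 and -0.20 grouped by the genotype field. Of its 50-base stretches, 28.3% were shared, most with Gm7049.

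The transcription factors of the pathway were not called. Srebf1, which encodes SREBP1, ranged from 12.64 to 12.86 and differed by -0.010 ± 0.058 (SE), its 95% interval running from -0.14 to 0.12. Mlxipl, which encodes the glucose-responsive factor ChREBP, stood at 12.38 to 12.52 in named WT and at 12.06 to 12.50 in named Qk-KO. Its difference was -0.16 ± 0.09 (SE, adjusted p = 0.672), and named Qk-KO 4 was the lowest library. Without it the difference was -0.075, and grouped by the genotype field it was -0.0087. Lpcat3, an acyltransferase that loads polyunsaturated chains onto phospholipids, had values of 11.76, 11.82, 11.82 and 12.05 in named WT and of 11.81, 11.72, 11.54 and 11.70 in named Qk-KO. Only named Qk-KO 1 reached into the named WT range. The difference was -0.17 ± 0.08 (SE), its 95% interval running from -0.34 to 0.012 and an adjusted p of 0.631. It was -0.10 without named WT 4 and -0.025 grouped by the genotype field.

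The 12 oxidation genes had limma differences from -0.091 to 0.128. Not all of them were even between libraries. Cpt2 had a range of 0.705 on the log2 scale, against 0.216 for Acly of the synthesis genes and 0.093 for Acaa2. Across the carnitine shuttle and activation genes, all 4 differences were at or below 0, from -0.091 to about 0. Cpt1a, the outer-membrane carnitine palmitoyltransferase that controls entry of fatty acids into mitochondria, had values of 12.28, 12.23, 12.25 and 12.37 in named WT and of 12.28, 12.26, 12.12 and 12.28 in named Qk-KO. Apart from named Qk-KO 3, the named Qk-KO libraries lay within the range of named WT. Its difference of -0.047 had a 95% interval of -0.18 to 0.081. Slc25a20, the carnitine-acylcarnitine carrier, differed by -0.091 (-0.28 to 0.096). Acsl1, a long-chain acyl-CoA synthetase that activates fatty acids, ranged from 11.11 to 11.31. Cpt2, the inner-membrane partner of Cpt1a, was even in named WT, from 9.15 to 9.32, and spread from 8.92 in named Qk-KO 1 to 9.63 in named Qk-KO 4.

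Of the 8 genes of beta-oxidation proper, 5 had the higher mean in named Qk-KO and 3 in named WT, with a median difference of 0.031. Acadvl, the very long-chain acyl-CoA dehydrogenase, had the highest difference of these. Its values were 11.36, 11.39, 11.29 and 11.30 in named WT and 11.51, 11.55, 11.36 and 11.44 in named Qk-KO. Named Qk-KO 3 alone lay within the named WT range. The difference was 0.13 ± 0.06 (SE), its 95% interval running from -0.00082 to 0.26, an unadjusted p of 0.0512 and an adjusted p of 0.604. Grouped by the genotype field it was 0.031. Acadvl overlaps Dvl2 on the opposite strand, and 26.9% of its 50-base stretches occur in other genes, so that without strand information part of its signal could belong to Dvl2. Ech1, an enoyl-CoA isomerase for unsaturated chains, differed by 0.11 ± 0.06 (SE, adjusted p = 0.672). The medium-chain and long-chain dehydrogenases Acadm and Acadl differed by -0.052 and 0.059, and in Acadl named Qk-KO 1 stood apart at 11.19 against 10.71 to 10.92.

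Hadha and Hadhb, whose starts share the 85 bases printed above, differed by -0.045 and -0.033. Hadha ranged from 12.56 to 12.72 and Hadhb from 11.26 to 11.55, and both were lowest in named Qk-KO 3. Acaa2, the last thiolase step of mitochondrial oxidation, had the narrowest range of all 32 genes. It stood at 10.35, 10.38, 10.31 and 10.35 in named WT and at 10.41, 10.39, 10.37 and 10.38 in named Qk-KO, a difference of 0.040 with a 95% interval of -0.071 to 0.15. Etfdh, which passes electrons from the dehydrogenases to ubiquinone, differed by 0.021 (-0.17 to 0.21).

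None of the genes induced by fatty acids or of lipid storage was called, and all 3 had overlapping groups. Plin2, the perilipin that coats lipid droplets, had values of 13.55, 13.70, 13.57 and 13.06 in named WT and of 14.15, 13.70, 13.76 and 13.20 in named Qk-KO. It was lowest in both libraries numbered 4, the reverse of Scd1, Fads2 and Me1, and highest in named Qk-KO 1. The difference was 0.23 ± 0.21 (SE), its 95% interval running from -0.24 to 0.70 (adjusted p = 0.774). Without named Qk-KO 1 it was 0.085, without named WT 4 0.098 and without named Qk-KO 4 0.40, and it was -0.089 with libraries grouped by the genotype field. Angptl4, a secreted inhibitor of lipoprotein lipase, was also highest in named Qk-KO 1, at 7.44 against 6.46 to 6.77 elsewhere, and its difference of 0.18 became -0.020 without that library. Pdk4, a kinase that shuts off pyruvate dehydrogenase when fatty acids are burned, spread from 3.22 to 5.31 with overlapping groups and a 95% interval of -1.12 to 1.02.

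The 2 fatty acid-binding proteins differed in abundance by far more than between groups. Fabp5, a cytosolic fatty acid carrier of macrophages and epithelia, had values of 13.18, 13.02, 12.99 and 13.05 in named WT and of 13.12, 13.01, 12.67 and 12.75 in named Qk-KO. Named Qk-KO 3 and 4 lay below all other libraries, and the difference was -0.17 ± 0.10 (SE), its 95% interval running from -0.40 to 0.052 (adjusted p = 0.679). It was -0.10 without named Qk-KO 3 and -0.061 grouped by the genotype field. Fabp4, the adipocyte and macrophage form, was scarce, with libraries from 3.92 to 4.92 and a difference of 0.15 (-0.36 to 0.66). Of 6 adipocyte markers, Cidec, Lep and Cfd were at 0 in every library, and the summed level was at most 0.0254 approximate CPM.

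Some members were far less even than others. The range over 8 libraries was under 0.5 on the log2 scale for 16 of the 32 genes and above 1 for 7, namely Fads2, Pdk4, Me1, Scd1, Elovl6, Plin2 and Fabp4. The SD was larger in named Qk-KO than in named WT for 26 of 32, and the share over all genes was not computed. Over all genes tested, named Qk-KO libraries also differed more from each other. The SD of the log2 difference between 2 libraries was 0.436 to 0.691 within named Qk-KO and 0.392 to 0.536 within named WT. The count is therefore not read as a trait of these genes. Named Qk-KO 3 was the lowest library for 17 members, where it was lowest for 16.9% of all genes tested, and named WT 4 was the highest for 12, against 15.2%. Named Qk-KO 1 was highest for 8, against 14.6%. Named Qk-KO 3 was also the library with the fewest reads, at about 43.9 M, and the lowest astrocyte marker sum. Its microglia, oligodendrocyte, mural and fibroblast, neuron and erythroid marker sums were the lowest as well, and those of the other lists were not. Like the astrocyte sum, the neuron sum and the mural and fibroblast sum were highest in named WT 4 and named Qk-KO 4. Oligodendrocyte markers summed to 311.5 approximate CPM in named WT 4 and, next to it, 265.2 in named Qk-KO 4, against 125.2 to 139.8 in the other 6 libraries. The part of depth and of RNA from any of these cell types in the library differences was not tested.

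**Figure D4:**
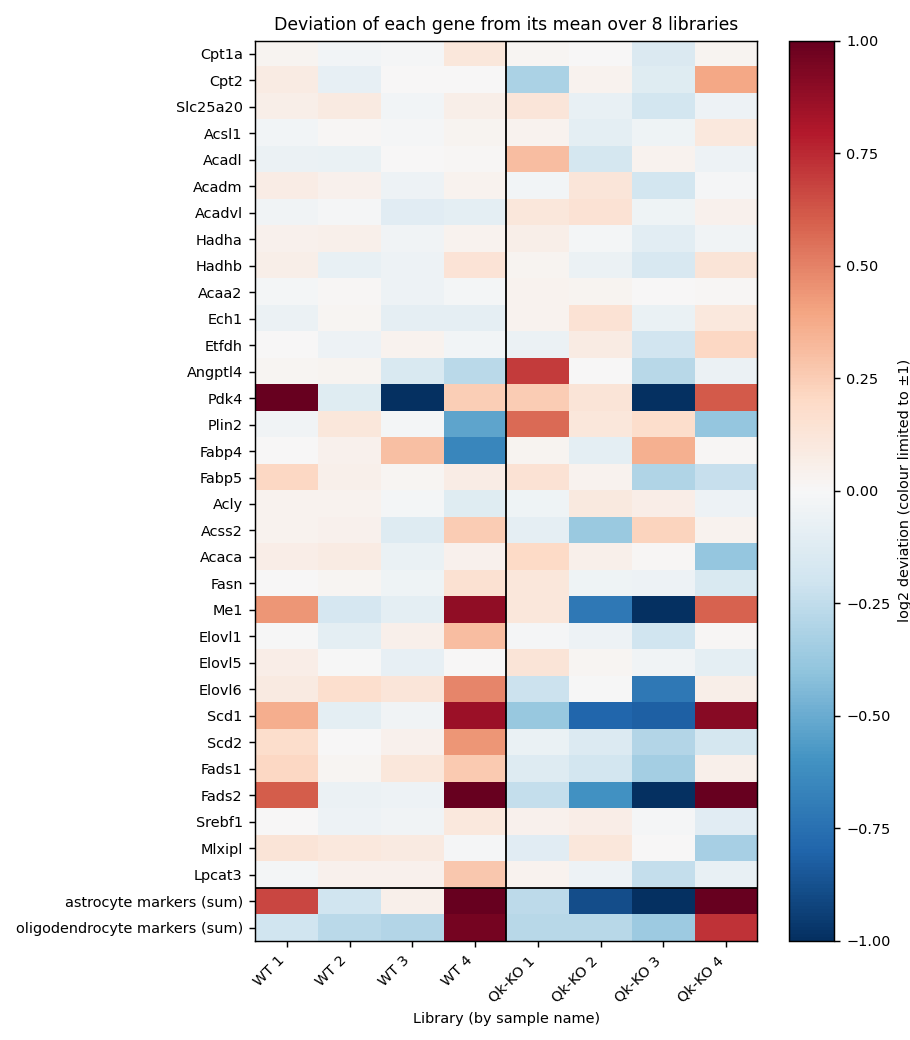
Deviation of each gene from its mean over the 8 libraries on the log2 scale, with colour limited to ±1, and of the summed astrocyte and oligodendrocyte markers in the lowest rows. Fads2, Scd1 and Me1 are high in both libraries numbered 4 and low in named Qk-KO 3, as the astrocyte sum is, while Acaa2, Hadha and Acsl1 hardly vary.

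Markers of other cells were checked in the same approximate CPM. Endothelial markers summed to 220.4 to 307.5 across named WT and 237.8 to 274.2 across named Qk-KO, and erythroid markers to 226.2 to 411 and 119.7 to 284.8. Mural and fibroblast markers reached 21.6 to 64.8 and 11.1 to 83.3, neuron markers 5.84 to 10.7 and 3.76 to 10.4, and oligodendrocyte precursor markers 186 to 256.9 and 152 to 220.3. Border-associated macrophage markers summed to 110.2 to 183.8 and 117.5 to 179.1, and monocyte markers to 14.0 to 65.2 and 15.2 to 33.1. Neutrophil markers stood at 332.4 in named WT 2 against 9.85 to 69.6 elsewhere. The microglia markers themselves summed to 12340 to 13850 in named WT and to 9562 to 11200 in named Qk-KO, without overlap, and 3 of the 9, Csf1r, Cx3cr1 and Sall1, were called lower in the authors' deposited table. Their part in the fatty acid gene values was not tested.

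Around the 32 genes, 8 further lists of the pathway held 137 genes, of which 131 were tested. Of the 117 with an adjusted p in the authors' deposited table, 1 was called, a share near the background of 1.22%. It was Cd36, a scavenger receptor that takes up long-chain fatty acids and oxidised lipids. Its values were 10.52, 10.66, 10.36 and 10.59 in named WT and 10.10, 10.03, 9.71 and 9.98 in named Qk-KO, with all 4 named Qk-KO libraries below all named WT libraries. The authors' log2 fold change was -0.59 ± 0.11 (SE), a 1.51-fold lower level in their deposited table, with an adjusted p of 0.000226. Limma gave -0.58 ± 0.10 (SE) with an adjusted p of 0.255 and called 0 of the 131. At an unadjusted limma p under 0.05 there were 18, or 13.7%, against 8.26% of all genes tested. Over the 131 genes, 52 differences were positive and 79 negative, with a median of -0.029, against -0.0044 over all genes tested. Without overlap, 7 genes were lower and 4 higher in named Qk-KO. The 7 are 5.34%, against 2.7% of all genes tested, and the 11 together 8.4%, against 5.73%.

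Uptake and activation genes other than Cd36 were not called. Of 15 tested, 7 were positive and 8 negative. Acsl4, which activates arachidonic acid for phospholipids, had the highest authors' log2 fold change among those of at least 1 CPM, 0.24 ± 0.08 (SE, adjusted p = 0.103). Named WT ranged from 12.40 to 12.63 and named Qk-KO, wholly above it, from 12.68 to 12.87. Among the other synthesis, elongation and desaturation genes, 20 of 23 were negative and 3 positive, with a median of -0.093 and none called. Among those of at least 1 CPM, Acss1, the mitochondrial acetyl-CoA synthetase, was the highest at 0.17 ± 0.06 (SE, adjusted p = 0.128). Elovl7, an elongase of very long chains, was the lowest at -0.65 ± 0.35 (SE, adjusted p = 0.512), both in the authors' deposited table. The 7 lysophospholipid acyltransferases were all negative, with a median of -0.21 and none called, from Lpcat4 at -0.034 to Mboat7 at -0.27 (adjusted p = 0.277) in that table among those of at least 1 CPM.

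Oxidation lists again split evenly. Other mitochondrial oxidation genes were positive in 11 and negative in 9, with Eci2, an enoyl-CoA isomerase, at 0.15 and Cpt1c, the brain form of carnitine palmitoyltransferase, at -0.41 in the authors' deposited table. Peroxisomal oxidation genes were positive in 8 and negative in 8, with Ehhadh, the bifunctional enzyme, at 0.20 and Abcd3, a peroxisomal fatty acid transporter, at -0.27 ± 0.09 (SE, adjusted p = 0.0940) in that table. Lipid droplet and triglyceride genes were positive in 10 and negative in 11. Hilpda, an inhibitor of triglyceride lipolysis, had the highest authors' log2 fold change there among genes of at least 1 CPM, at 0.50 ± 0.48 (SE). Like Plin2 it was highest in named Qk-KO 1, at 10.49, and lowest in named WT 4 and named Qk-KO 4, at 7.52 and 7.80. Mgll, monoacylglycerol lipase, was the lowest of those at -0.34 ± 0.15 (SE, adjusted p = 0.329) in the authors' deposited table. Regulators were positive in 12 and negative in 11. The adipogenic receptor Pparg, at 0.48, and the kinase Pdk2, at -0.23, had the highest and lowest log2 fold changes in the authors' deposited table among regulators of at least 1 CPM. Of the 6 NADPH supply genes 5 were negative, and the isocitrate dehydrogenases Idh2 and Idh1 stood at 0.058 and -0.13 in that table. No regulator or NADPH gene was called by either test.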

How the data were processed

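RNA of 8 microglia libraries was sequenced. FastQC, HISAT2, StringTie and DESeq2, with mm10 as the build, are listed without version or role per the submitters' processing notes. The gene annotation they used is not given in the sources consulted. The 8 deposited library columns hold log2 values, read from their behaviour as regularized values, shrunken towards the gene's mean where reads are few. Other columns, per the file headers, are the authors' mean normalized signal, log2 fold change with its standard error, test statistic (a score), p-value and adjusted p-value. No counts per library are given, so the count test planned for that kind of data was not run. Differences were tested, as planned for log2 values, by limma 3.58.1 (R 4.3.3, intensity trend, robust), with no pseudocount. The test took genes whose normalized value reached 1 in 4 or more libraries, 22546 of 27486 with reads. Calls were made below 0.05 after Benjamini-Hochberg adjustment over all of them. The script was tested on simulated data. CPM was obtained by dividing the authors' mean signal by 56.8, its value at 1 CPM. Exon lengths and coordinates come from GENCODE M21 (GRCm38), which holds 98.9% of the identifiers in some version and 80.7% in the same version, and promoters from RefSeq (GRCm38.p6). Read totals were estimated from genes detected in 1 library alone, whose values were whole multiples within 1% in 100% of cases. Python 3.11.15, pandas 2.3.3 and matplotlib 3.10.9 were used for summaries and figures.

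All 32 genes are named. Of each further list, genes called by the authors and those with the highest and lowest authors' log2 fold change at 1 CPM or more are named. A marker of the microglia list is not reported here and enters no sum. The members and lists were chosen with earlier results of these data known. Alternatives covered the filter, scaling, variance model, replicate block, grouping by the genotype field, that field as a covariate, and leaving out each library. Leaving out both libraries numbered 4 was added after the data were seen. No 2 libraries were near-identical (the smallest SD of a difference between libraries was 0.392 on the log2 scale).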

Additional observations from a re-analysis of the deposited data

Results flagged for a closer look

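Cpt1a in named Qk-KO 3, the lowest of its 4 libraries, had a deposited log2 value of 12.12, against 12.26 in the nearest other named Qk-KO library. The gap was 0.858 of the whole range of the group, above Dixon's 95% critical value for 4 samples. Of 64 groups of 4 values tested, from 32 genes in 2 named groups, this was the only one past that value, where chance gives about 1 in 20.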

How the results depend on the processing

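No member was called by limma under any of the 18 settings. Scd2 was the 1 member called in the authors' deposited table with the threshold at 0.1 in place of 0.05. Limma called 1 of all genes tested, 0 with a mean of at least 1 CPM required and 0 with libraries grouped by the genotype field, 4 without both libraries numbered 4, and 0 to 7 when 1 library was left out (0 without named Qk-KO 3, 7 without named Qk-KO 4, 3 without named WT 2 or named Qk-KO 2, 2 without named Qk-KO 1). The samples were not treated as paired, since the labels give no shared source and not every same-numbered pair correlated above 0.1 in its deviations (0.045, 0.147, 0.246 and 0.456). Each named WT library, and 3 of the 4 named Qk-KO libraries, nevertheless correlated best with its own number (named WT 2 equally with named Qk-KO 3), the exception being named Qk-KO 1, a hint from the data and not the design. The replicate block left 1 gene and 0 members called, and raised members at an unadjusted p under 0.05 from 2 to 10, while genes at that p rose from 1863 to 2924.

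Log2 differences that changed sign, none of them called, were these; the causes were not tested. With median centring they became 0.030 for Cpt1a, 0.072 for Cpt2, 0.076 for Acsl1, 0.025 for Acadm, 0.032 for Hadha, 0.043 for Hadhb, 0.029 for Pdk4, 0.014 for Acaca, 0.012 for Fasn and 0.067 for Srebf1. Grouped by the genotype field they became 0.17 for Cpt2, 0.0047 for Acsl1, -0.15 for Acadl, 0.051 for Acadm, -0.0020 for Acaa2, -0.087 for Angptl4, -0.089 for Plin2, -0.082 for Elovl5, 0.17 for Elovl6 and 0.28 for Fads2. Quantile normalization gave 0.054 for Pdk4 and -0.016 for Elovl5. Without both libraries numbered 4 they became -0.050 for Etfdh, -0.020 for Fabp4, 0.061 for Acaca, 0.016 for Fasn and 0.060 for Srebf1. Leaving out 1 library at a time gave ranges of -0.14 to 0.099 for Cpt2, -0.035 to 0.032 for Acsl1, -0.034 to 0.13 for Acadl, -0.10 to 0.0015 for Acadm, -0.081 to 0.014 for Hadhb, -0.045 to 0.088 for Etfdh, -0.020 to 0.31 for Angptl4, -0.40 to 0.31 for Pdk4, -0.041 to 0.28 for Fabp4, -0.20 to 0.0033 for Acss2, -0.14 to 0.057 for Acaca, -0.030 to 0.045 for Elovl5 and -0.033 to 0.026 for Srebf1. Without a change of sign they were -0.064 to -0.0081 for Cpt1a, -0.15 to -0.045 for Slc25a20, 0.10 to 0.16 for Acadvl, -0.073 to -0.018 for Hadha, 0.029 to 0.051 for Acaa2, 0.078 to 0.15 for Ech1, 0.085 to 0.40 for Plin2, -0.25 to -0.10 for Fabp5, 0.00060 to 0.058 for Acly, -0.11 to -0.023 for Fasn, -0.81 to -0.27 for Me1, -0.18 to -0.044 for Elovl1, -0.53 to -0.27 for Elovl6, -0.93 to -0.35 for Scd1, -1.63 to -0.38 for Fads2, -0.22 to -0.075 for Mlxipl and -0.20 to -0.10 for Lpcat3. For Scd2 and Fads1 they were -0.39 to -0.24 and -0.36 to -0.23, with limma adjusted p of 0.182 to 0.795 and 0.0934 to 0.795. No edgeR or DESeq2 fit was run, because no counts per library are given. Shrinkage of the deposited values understates differences of scarce genes such as Elovl6, Pdk4 and Fabp4.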
